A study of Mus musculus with 8 samples.

Results

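The genes examined here were S1pr1, S1pr4, Ccr7 and Cd44, 4 mouse genes whose products place lymphocytes in, or release them from, lymph nodes. They were chosen by symbol from a deposited RNA sequencing table of regulatory T (Treg) cells. They are 4 of the 22432 genes listed, and all 4 were among the 13797 genes that passed a filter on low values and were tested. Expression was measured in Treg cells of 4 genotypes, with 2 libraries per genotype, 8 in all. DKO cells had floxed alleles of both RelB and nfkb2, Nfkb2-KO cells had floxed nfkb2 alone, RelB-KO cells had floxed RelB alone, and WT cells had neither. Every group, WT included, was on C57Bl/6 and carried Foxp3-CRE-YFP, so that Cre is driven by the Treg gene Foxp3 and deletion is limited to cells that have expressed it. YFP+ cells were sorted after spleen and lymph nodes had been pooled, which leaves the organ of origin of each cell unknown, and the animals' ages are not given in the sources used here. All cells were then cultured for 16 h on anti-CD3 bound to the plate (5 µg/ml), with anti-CD28 (1 µg/ml), an agonist of the costimulatory receptor OX40 (antibody, 2 µg/ml) and IL-2 (10 ng/ml).

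Sphingosine-1-phosphate (S1P) is kept low inside lymphoid tissue and high in blood and lymph. A lymphocyte leaves a lymph node by following this gradient through S1PR1, a Gi-coupled receptor, and the activation marker CD69 holds the cell back by removing S1PR1 from the surface. S1PR4 is a second S1P receptor, expressed mainly in haematopoietic cells. CCR7, the receptor for the chemokines CCL19 and CCL21, guides cells into the node and its T cell zone. CD44 is an adhesion receptor for the matrix sugar hyaluronan and is a standard marker of antigen-experienced T cells. The transcription factors KLF2 and FOXO1 are known activators of S1pr1 and Ccr7 in resting T cells, and stimulation through the antigen receptor lowers KLF2. RelB and the p52 product of Nfkb2 form the main dimer of the alternative NF-kB pathway.

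Promoter windows from RefSeq (build GRCm38.p6) reach from 250 bases before to 50 bases after a gene's start and were sought for all 4 genes. Windows were found for 2 of the 4 genes, S1pr4 and Cd44, and S1pr1 and Ccr7 are named only. The S1pr4 window is chr10:81500088-81500387 and the Cd44 window is chr2:102901616-102901915, both on the minus strand and written 5′ to 3′ in the direction of transcription. Capitals mark letters matching an NF-kB-type motif, GGGNNNNNCC, or a KLF-type motif, CACCC, on either strand.
S1pr4: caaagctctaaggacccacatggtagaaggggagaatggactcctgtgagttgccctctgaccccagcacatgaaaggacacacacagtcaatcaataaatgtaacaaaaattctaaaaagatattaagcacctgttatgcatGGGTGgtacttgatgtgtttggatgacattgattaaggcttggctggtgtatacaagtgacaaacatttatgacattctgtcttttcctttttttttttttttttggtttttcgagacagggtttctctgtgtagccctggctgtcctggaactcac
Cd44: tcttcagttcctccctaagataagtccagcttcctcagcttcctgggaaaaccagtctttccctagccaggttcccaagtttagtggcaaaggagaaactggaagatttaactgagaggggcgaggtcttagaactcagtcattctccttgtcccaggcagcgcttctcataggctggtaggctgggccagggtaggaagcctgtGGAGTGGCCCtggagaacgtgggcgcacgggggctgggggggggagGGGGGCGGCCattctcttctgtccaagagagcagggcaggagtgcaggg
The Cd44 window held 2 NF-kB-type matches, GGAGTGGCCC starting at -45 on the other strand and GGGGGCGGCC starting at 2, with the gene's first base counted as 1, and no KLF-type match. The S1pr4 window held 1 KLF-type match, GGGTG at -107, on the other strand, and no NF-kB-type match. Neither window held the FOXO-type letters GTAAACA on either strand. Of 32817 windows of 300 bases in the RefSeq table, 50.8% held the NF-kB-type letters, 57.5% the KLF-type letters and 3.65% the FOXO-type letters. The 2 NF-kB-type matches did not overlap each other. Matches describe the sequence only, and no binding was measured.

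The deleted genes were checked first. Relb was at 6.74 and 7.08 in DKO, 6.35 and 6.52 in RelB-KO, and 10.49 to 10.84 in Nfkb2-KO and WT libraries. Nfkb2 was at 9.29 and 9.85 in DKO, 8.75 and 8.79 in Nfkb2-KO, and 12.31 to 12.80 in RelB-KO and WT libraries. For each deleted gene, both DKO libraries were thus above those of the single knockout. Whether this bears on the contrasts with DKO cells was not tested. These and all levels below are the authors' log2 expression values, relative to library size, on which 1 unit is a factor of 2. Foxp3 was at 13.95 to 14.28 in all 8 libraries, and the summed level of the 6 Treg markers was 17.22 to 17.52. The B cell gene Pax5 was listed at 0, and summed B cell markers reached 7.83 at most, myeloid and dendritic markers 6.86 and CD8 T and NK markers 8.29. One library stood apart, WT replicate 1, with Xist at 8.17 against 14.61 to 15.13 in the other libraries and Ddx3y at 11.60 against 4.25 to 4.35. Values without it are given where leaving it out changes the call or direction of a member, or the call of a list gene, against WT. The design gives 30 M reads per sample, and the depth behind each value is otherwise unknown. The labels do not say whether replicates came from separate animals, so p-values measure only the spread between these libraries.

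Of the 4 genes, S1pr1 and S1pr4 had their lowest levels, and Cd44 its highest, in Nfkb2-KO cells, while Ccr7 overlapped between genotypes in every pair except Nfkb2-KO and RelB-KO. The difference from WT was -0.64 for S1pr1, -0.51 for S1pr4 and 0.34 for Cd44 in Nfkb2-KO cells, and those of RelB-KO cells were between -0.14 and 0.00 for these 3 genes. DKO cells, with both genes floxed, lay closer to WT than Nfkb2-KO cells did for all 3, but also held more Nfkb2 RNA than Nfkb2-KO cells. With limma, none of the 4 genes passed an adjusted p of 0.05 in any of the 7 contrasts (6 pairs of genotypes and the interaction). At an unadjusted p under 0.05, S1pr1 passed in 4 of the contrasts, S1pr4 in 5, and Ccr7 and Cd44 in 0. With the block the counts were 4, 5 and 0 for S1pr1, S1pr4 and Ccr7, and 4 for Cd44. Over the 7 contrasts 1.24% to 11.9% of all tested genes passed that threshold, and 3.13% to 20.1% with the block. With the replicate number as a block, S1pr4 alone passed, and it was lower in Nfkb2-KO cells than in WT and than in RelB-KO cells. For Nfkb2-KO minus WT, limma called 0.341% of the 13797 genes tested, and 2.91% with the block, of which 1.00% were lower. In bulk RNA, fewer cells of one kind and less RNA per cell cannot be told apart.

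**Figure D1:**
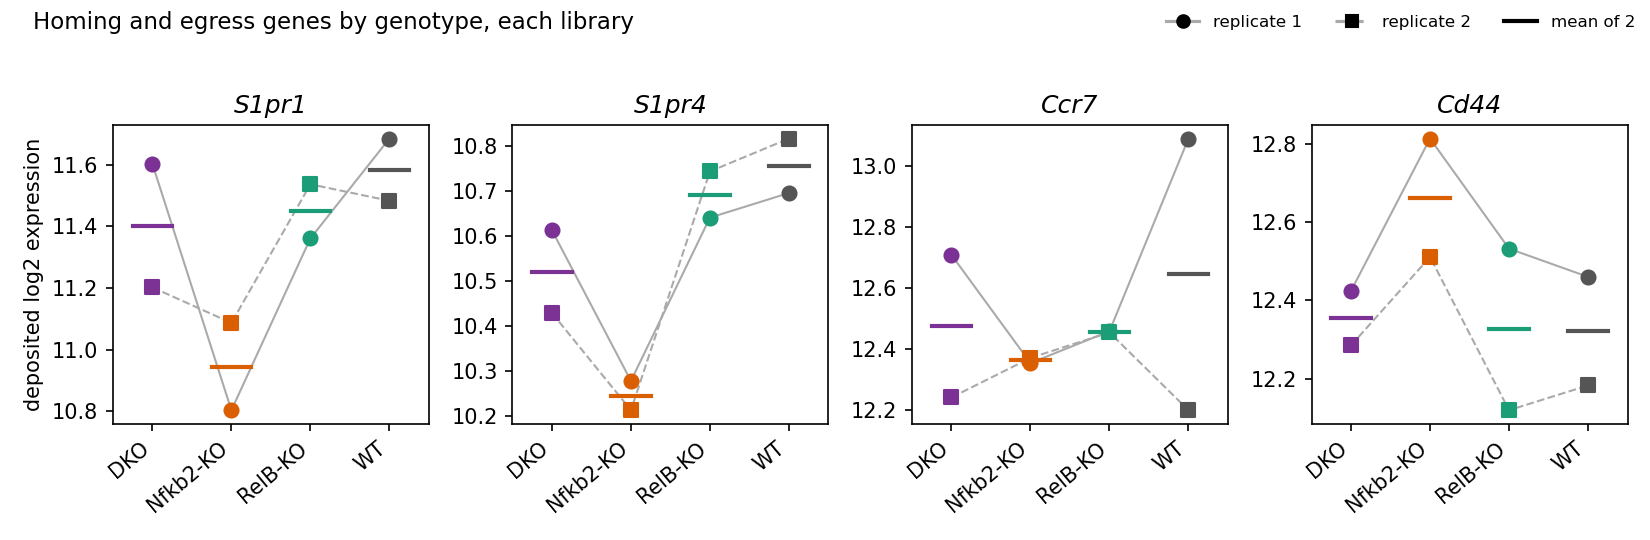
Deposited log2 expression of S1pr1, S1pr4, Ccr7 and Cd44 in each of the 8 libraries, one panel per gene, by genotype (DKO, Nfkb2-KO, RelB-KO, WT). Points are libraries, marked by replicate number, and bars are the mean of 2. S1pr1 and S1pr4 points of Nfkb2-KO cells lie below those of the other genotypes, and the spread of Ccr7 in WT, 12.20 to 13.09, covers every other Ccr7 point.

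S1pr1, which encodes the principal egress receptor, lies on chromosome 3 (mm10, 115710433 to 115715072, minus strand) and is protein coding. Its levels were 11.60 and 11.20 in DKO cells, 10.80 and 11.09 in Nfkb2-KO cells, 11.36 and 11.54 in RelB-KO cells, and 11.69 and 11.48 in WT cells. Both Nfkb2-KO libraries were below all 6 others. The means were 11.40 ± 0.28 in DKO, 10.94 ± 0.20 in Nfkb2-KO, 11.45 ± 0.12 in RelB-KO and 11.58 ± 0.14 in WT cells (SD, n = 2 each). In the order of means, WT, RelB-KO and DKO cells overlapped with their neighbours, and Nfkb2-KO cells stood below.

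Relative to WT, S1pr1 in Nfkb2-KO cells differed by -0.64 ± 0.17 (limma, SE), a ratio of 0.642, with a 95% interval from -1.04 to -0.24. The adjusted p was 0.261, and 0.0597 with the block, so the gene passed the threshold in neither. Matched by replicate number, the differences were -0.88 and -0.40. Of the genes tested, 0.486% had a lower difference than S1pr1. With all libraries the blocked fit therefore made no call. It made one when Nfkb2-KO replicate 2 (-0.85, adjusted p = 0.0423) or any 1 of the DKO and RelB-KO libraries was left out (-0.64, adjusted p of 0.0468 to 0.0498). It made none without Nfkb2-KO replicate 1 (-0.43, adjusted p = 0.380), WT replicate 1 (-0.53, adjusted p = 0.189) or WT replicate 2 (-0.75, adjusted p = 0.103). In the authors' deposited table the log2 fold change was -0.60 with an adjusted p of 0.00247, in a comparison that called 6.22% of its genes.

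Among the knockouts, S1pr1 in DKO cells was above Nfkb2-KO cells by 0.46 ± 0.17, a ratio of 1.37, in both matched pairs (0.80 and 0.12), with an adjusted p of 0.418, and 0.144 with the block. Between Nfkb2-KO and RelB-KO cells the difference was -0.50 ± 0.17, with matched values of -0.56 and -0.45 and an adjusted p of 0.298, and 0.0976 with the block. S1pr1 in DKO cells lay -0.18 from WT, with an interval from -0.58 to 0.22, and RelB-KO cells by -0.14, with an interval from -0.54 to 0.27. The interaction, which is the effect of RelB loss in cells with floxed nfkb2 less its effect in cells without floxed nfkb2, was 0.59 ± 0.24 for S1pr1. Its adjusted p was 1.0, and 0.423 with the block. For the interaction 0.00725% of genes were called, and 0.471% with the block.

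S1pr4, the haematopoietic S1P receptor, lies on chromosome 10 (mm10, 81497747 to 81500132, minus strand). It was at 10.61 and 10.43 in DKO cells, 10.28 and 10.21 in Nfkb2-KO cells, 10.64 and 10.74 in RelB-KO cells, and 10.70 and 10.82 in WT cells. The Nfkb2-KO libraries were again the 2 lowest, and the DKO libraries were the next 2, without overlap with RelB-KO or WT cells. The means were 10.52 ± 0.13 in DKO, 10.25 ± 0.05 in Nfkb2-KO, 10.69 ± 0.07 in RelB-KO and 10.76 ± 0.09 in WT cells (SD, n = 2 each). RelB-KO and WT cells overlapped.

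The difference of S1pr4 between Nfkb2-KO and WT cells was -0.51 ± 0.09 (limma), with an interval from -0.73 to -0.29 and a ratio of 0.702. The matched differences were -0.42 and -0.60. Its adjusted p was 0.125, and 0.0232 with the block, where S1pr4 fell. Without WT replicate 1 the value was -0.60 and the blocked call remained (adjusted p = 0.0471). The call was lost without Nfkb2-KO replicate 1 (-0.55, adjusted p = 0.104), Nfkb2-KO replicate 2 (-0.47, adjusted p = 0.141) or WT replicate 2 (-0.43, adjusted p = 0.120). The authors' deposited table gave -0.55 with an adjusted p of 0.000322.

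Set against RelB-KO cells, S1pr4 in Nfkb2-KO cells differed by -0.45 ± 0.09, a ratio of 0.734, with matched values of -0.36 and -0.53. Its adjusted p was 0.128, and 0.0271 with the block. Of the tested genes 0.797% were called in this contrast, and 4.46% with the block, 1.67% lower. The blocked call was lost without Nfkb2-KO replicate 1 (adjusted p = 0.128), Nfkb2-KO replicate 2 (0.169), RelB-KO replicate 1 (0.0636) or RelB-KO replicate 2 (0.184). DKO cells were above Nfkb2-KO cells by 0.28 ± 0.09, with matched differences of 0.33 and 0.22 and an adjusted p of 0.366, and 0.145 with the block. They differed from WT by -0.24, with matched values of -0.08 and -0.39, and from RelB-KO cells by -0.17, with matched values of -0.03 and -0.31. Neither of these passed (adjusted p = 0.861 and 1.0). The interaction was 0.34 ± 0.13, with an adjusted p of 1.0, and 0.467 with the block.

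Ccr7, which encodes the entry receptor, lies on chromosome 11 (mm10, 99144196 to 99155077, minus strand). Its levels were 12.71 and 12.24 in DKO cells, 12.35 and 12.37 in Nfkb2-KO cells, 12.46 and 12.45 in RelB-KO cells, and 13.09 and 12.20 in WT cells. The 2 WT libraries were the highest and the lowest of all 8, and every genotype overlapped WT. Means were 12.47 ± 0.33 in DKO, 12.36 ± 0.01 in Nfkb2-KO, 12.46 ± 0.00 in RelB-KO and 12.64 ± 0.63 in WT cells (SD, n = 2 each). In the order of means, neighbours overlapped except RelB-KO above Nfkb2-KO cells. For Nfkb2-KO minus RelB-KO the difference was -0.09 ± 0.29 (limma, SE), with an adjusted p of 0.959, and 0.829 with the block.

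The difference of Ccr7 from WT was -0.17 in DKO, -0.28 in Nfkb2-KO and -0.19 in RelB-KO cells, each ± 0.29 (limma, SE), with no adjusted p below 0.472 with or without the block. For Nfkb2-KO cells the interval ran from -0.97 to 0.41, so a change of the size seen in S1pr1 was within it. All 3 directions rested on WT replicate 1, the library that stood apart in Xist and Ddx3y. Without it, Ccr7 differed from WT by 0.28 in DKO, 0.16 in Nfkb2-KO and 0.26 in RelB-KO cells. Between knockouts, where WT libraries do not enter the difference, Ccr7 differed by 0.11 for DKO minus Nfkb2-KO, 0.02 for DKO minus RelB-KO and -0.09 for Nfkb2-KO minus RelB-KO. The authors' deposited table gave -0.18 for Nfkb2-KO cells, with an adjusted p of 0.733.

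Cd44, the hyaluronan receptor, lies on chromosome 2 (mm10, 102811141 to 102901665, minus strand), and a small nuclear RNA gene, Gm23731, overlaps it on the plus strand. Its levels were 12.42 and 12.28 in DKO cells, 12.81 and 12.51 in Nfkb2-KO cells, 12.53 and 12.12 in RelB-KO cells, and 12.46 and 12.18 in WT cells. In every genotype replicate 1 was above replicate 2, and within each replicate number Nfkb2-KO cells had the highest value. The means were 12.35 ± 0.10 in DKO, 12.66 ± 0.21 in Nfkb2-KO, 12.33 ± 0.29 in RelB-KO and 12.32 ± 0.20 in WT cells (SD, n = 2 each). DKO, RelB-KO and WT means lay within 0.03 of each other.

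Relative to WT, Cd44 in Nfkb2-KO cells differed by 0.34 ± 0.18 (limma), a ratio of 1.27, with an adjusted p of 0.597. The matched differences were nearly equal, 0.35 and 0.33, and with the block the SE was 0.08, the interval ran from 0.16 to 0.53 and the adjusted p was 0.0638, still above the threshold. The value was 0.34 without WT replicate 1 and with the block (adjusted p = 0.159). Nfkb2-KO and RelB-KO cells differed by 0.34, with matched values of 0.28 and 0.39 and an adjusted p of 0.537, and 0.0549 with the block. Leaving out either DKO library from the blocked fit brought this just past the threshold (adjusted p = 0.0499 for each). DKO and Nfkb2-KO cells differed by -0.31, with matched values of -0.39 and -0.23 and an adjusted p of 0.702, and 0.0722 with the block. The authors' deposited table gave 0.36 for Nfkb2-KO cells with an adjusted p of 0.00837. For DKO minus WT the difference of Cd44 was 0.03, with an interval from -0.40 to 0.46, and from -0.15 to 0.22 with the block. The first includes 0.34, the difference seen in Nfkb2-KO cells, and the second does not.

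**Figure D2:**
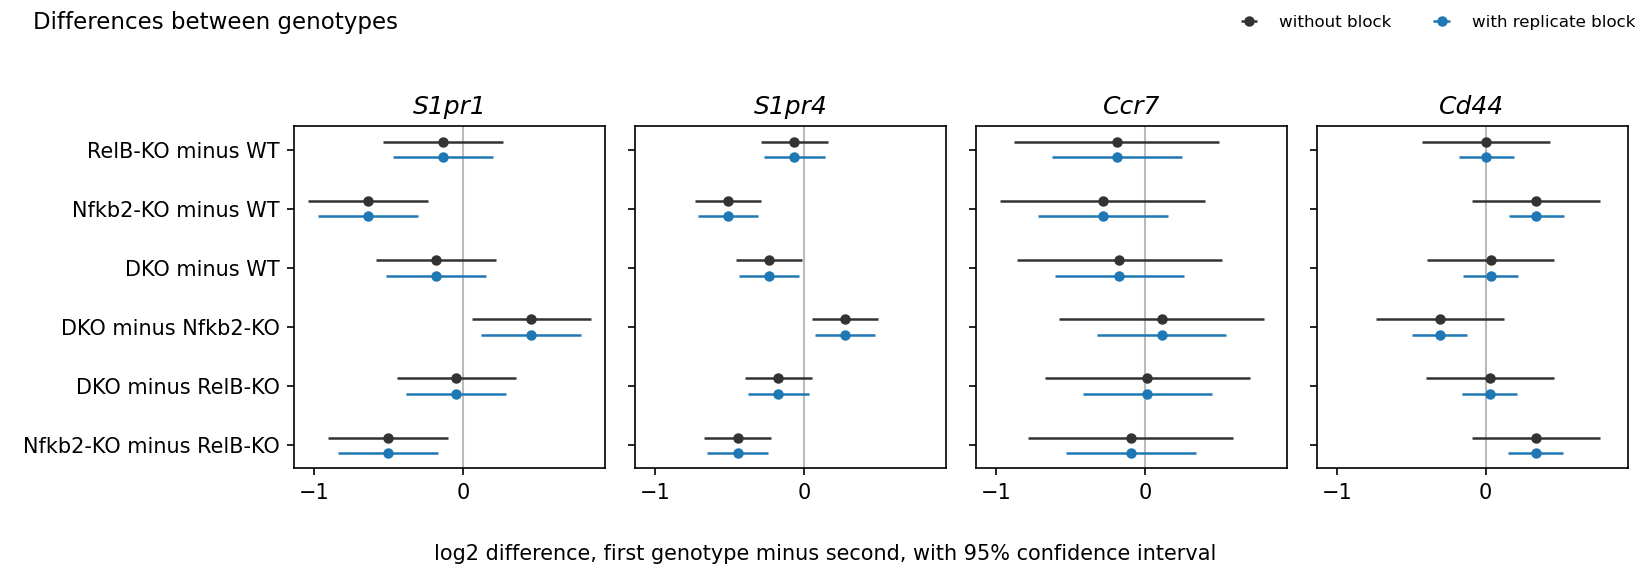
Log2 differences of the 4 genes in the 6 pairwise contrasts, as estimated by limma, with 95% intervals without and with the replicate number as a block. The intervals of S1pr1 and S1pr4 for Nfkb2-KO minus WT lie below 0 in both fits, and that of Cd44 lies above 0 with the block alone, from 0.16 to 0.53.

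Groups that do not overlap were common in these data, and the count of members is read against that. Between Nfkb2-KO and WT cells, 2 of the 4 genes were lower without overlap (S1pr1, S1pr4) and 1 was higher (Cd44), where 20.9% of tested genes were lower and 21.6% higher without overlap. Between DKO and Nfkb2-KO cells the same 2 genes were higher in DKO cells and Cd44 was lower, where 17.4% of tested genes were higher and 17.8% lower. Limma called 0.768% of genes in that contrast, and 5.02% with the block. Between Nfkb2-KO and RelB-KO cells S1pr1, S1pr4 and Ccr7 were lower without overlap and Cd44 overlapped, where 21.1% were lower. S1pr4 alone separated DKO from WT cells and DKO from RelB-KO cells, being lower in DKO cells, where 17.6% and 14.3% of tested genes were lower. None of the 4 separated RelB-KO from WT cells, where 20.6% of tested genes did in either direction. Of the 4 genes, Cd44, S1pr1 and S1pr4 passed in Nfkb2-KO cells in the authors' deposited table, where 6.22% of its genes did. None of the 4 passed in DKO cells, where 1.23% did, or in RelB-KO cells, where 0.119% did. The comparisons with WT share its libraries, and those with Nfkb2-KO cells share theirs. Their directions are therefore not independent of each other.

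**Figure D3:**
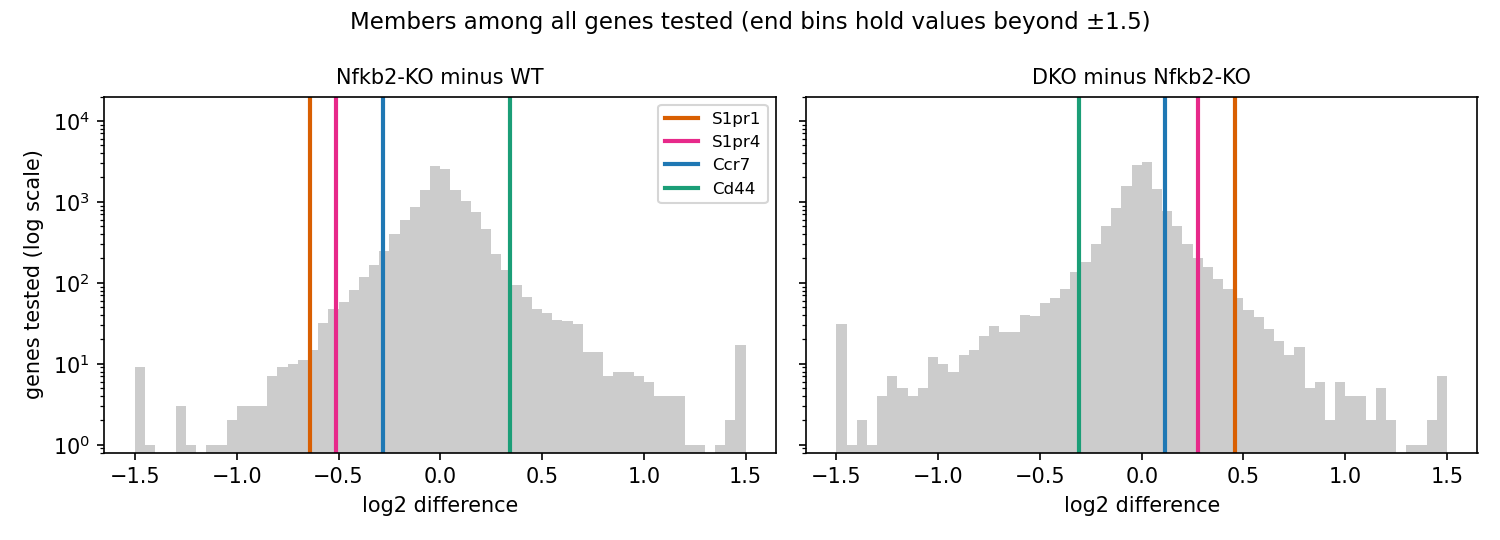
Distribution of the log2 difference over the 13797 tested genes, with the 4 members marked, for the contrasts shown. For Nfkb2-KO minus WT, 0.486% of genes lie below S1pr1, 1.05% below S1pr4 and 4.74% below Ccr7, and 3.41% lie above Cd44.

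The 4 genes differed in how much of their variation followed genotype. Genotype took 74.8% of the sum of squares over the 8 libraries for S1pr1 and 90.8% for S1pr4, and the replicate number took 0.415% and 0.0232%. For Cd44 the genotype share was 47.6% and the replicate number share 46.8%, which left 5.54%. For Ccr7 the shares were 14.1% and 38.4%, and 47.5% was left over. Across the tested genes the median shares were 43.2% for genotype, 18.4% for replicate number and 22.1% for the rest.

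Centred on the mean of their replicate number, S1pr1 and S1pr4 varied together over the 8 libraries (Pearson r = 0.852) and both varied against Cd44 (-0.931 for S1pr1 and -0.919 for S1pr4). Ccr7 had r of 0.695 with S1pr1, 0.331 with S1pr4 and -0.468 with Cd44. The points share genotypes and libraries, so these coefficients are descriptions. Taken within each library, the log2 level of Cd44 minus that of S1pr1 was 0.82 and 1.08 in DKO cells, 2.01 and 1.42 in Nfkb2-KO cells, 1.17 and 0.58 in RelB-KO cells, and 0.77 and 0.70 in WT cells. This gap was widest in both Nfkb2-KO libraries, and because gene length does not enter it, only its change between libraries can be read. Cd44 minus S1pr4 was likewise widest there, at 2.54 and 2.30, against 1.81 and 1.86 in DKO cells, 1.89 and 1.38 in RelB-KO cells, and 1.76 and 1.37 in WT cells.

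Other S1P receptors did not follow S1pr1 and S1pr4. S1pr2, a G12/13-coupled receptor that restrains migration and keeps lymphocytes in follicles, was at 8.36 and 8.23 in DKO cells, 9.05 and 8.79 in Nfkb2-KO cells, 8.56 and 8.36 in RelB-KO cells, and 8.58 and 8.65 in WT cells. Both Nfkb2-KO libraries were above all others. S1pr2 was higher in Nfkb2-KO than in RelB-KO cells (0.46) and lower in DKO than in Nfkb2-KO cells (-0.63). With the block both passed (adjusted p = 0.0326 and 0.00747), and without it neither did (0.208 and 0.0937). The first blocked call held only when a WT library was the one left out (range 0.38 to 0.54, adjusted p up to 0.269). The second was lost without either DKO library or Nfkb2-KO replicate 1 (range -0.71 to -0.54, adjusted p up to 0.104). Against WT, S1pr2 in Nfkb2-KO cells differed by 0.31 (adjusted p = 0.437, and 0.137 with the block). S1pr3 was near 4.67 to 4.93 in every library, and S1pr5 was below the filter at about -2.09 throughout.

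The S1P pathway list held 22 genes, of which 20 were tested, S1pr1 and S1pr4 among them. For Nfkb2-KO minus WT, 12 of the 20 had a negative difference and the median was -0.03, beside 0.00 over all genes tested, and S1pr4 was the only one called, with the block alone. Klf2, the activator of S1pr1 named above, was at 10.88 and 10.86 in DKO cells, 10.16 and 10.75 in Nfkb2-KO cells, 11.06 and 11.20 in RelB-KO cells, and 10.98 and 11.05 in WT cells. It was lowest in both Nfkb2-KO libraries, although replicate 2 lay close to the DKO libraries. With the block, Klf2 was lower in Nfkb2-KO than in RelB-KO cells, at -0.67 (adjusted p = 0.0256, and 0.216 without it), and relative to WT it differed by -0.56 (0.0614 with the block, 0.359 without). The blocked call was lost without Nfkb2-KO replicate 1 or either RelB-KO library (range -0.93 to -0.41, adjusted p up to 0.135). For Klf2 in Nfkb2-KO cells against WT, the authors' deposited table gave -0.53 with an adjusted p of 0.00682, where 6.22% of its genes passed. Cd69, whose product takes S1PR1 off the surface, differed by -0.04 between Nfkb2-KO and WT cells.

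In the homing list, 23 of 25 genes were tested, Ccr7 among them. For Nfkb2-KO minus WT, 17 had a negative difference, with a median of -0.12, and limma called 0 without the block, where 4 (7 with the block) had an unadjusted p under 0.05, as did 10.7% of all tested genes (18.3% with the block). With the block 2 were called. Cxcr5, the receptor for the follicular chemokine CXCL13, was lower, at -0.81 (adjusted p = 0.00965, and 0.0929 without the block), and Gpr183, the oxysterol receptor that positions cells at follicle borders, was higher by 0.63 (0.0144, and 0.469 without). The Cxcr5 call was lost without Nfkb2-KO replicate 2 or WT replicate 2 (range -0.94 to -0.69, adjusted p up to 0.0658). That of Gpr183 was lost without any 1 of the 4 libraries compared (range 0.56 to 0.70, adjusted p up to 0.0991), and without WT replicate 1 its value was 0.62 (0.0686). In DKO relative to Nfkb2-KO cells Gcnt1, an enzyme that branches O-linked sugar chains, was lower, at -0.78 with the block (adjusted p = 0.0254), a call lost without DKO replicate 2 or either Nfkb2-KO library (range -1.09 to -0.46, adjusted p up to 0.146).

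The CD44 and hyaluronan list had 18 of 20 genes tested, Cd44 among them, with a median of -0.03 for Nfkb2-KO minus WT and 12 negative differences. Cd74, the MHC class II invariant chain and a receptor for the cytokine MIF that pairs with CD44, was at 10.58 and 10.23 in DKO cells, 12.28 and 11.96 in Nfkb2-KO cells, 10.51 and 10.23 in RelB-KO cells, and 10.60 and 10.75 in WT cells. Both Nfkb2-KO libraries were more than 1 unit above all others. Cd74 rose by 1.45 in Nfkb2-KO relative to WT cells (adjusted p = 0.0448, and 0.000894 with the block) and was lower in DKO than in Nfkb2-KO cells, at -1.72 (0.0153, and 0.000168 with the block). The unblocked call against WT was lost when any 1 of the 8 libraries was left out (range 1.29 to 1.61), with a value of 1.37 and an adjusted p of 0.275 without WT replicate 1. The unblocked call between DKO and Nfkb2-KO cells was lost without any 1 of their 4 libraries (range -1.90 to -1.55, adjusted p up to 0.113). With the block both calls were made whichever library was left out, and without WT replicate 1 Cd74 was higher than in WT by 1.22 (adjusted p = 0.00120). CD74 is also abundant in B cells, and the summed B cell markers were 7.76 to 7.83 in DKO, 7.63 to 7.71 in Nfkb2-KO, 7.35 to 7.75 in RelB-KO and 7.27 to 7.50 in WT cells, with Pax5 at 0. Srgn, a proteoglycan of secretory granules that can bind CD44, was higher by 0.39 in Nfkb2-KO than in WT cells with the block (adjusted p = 0.0490, and 0.245 without). Its call held only without WT replicate 2, and without WT replicate 1 the value was 0.30 (0.170).

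Resting and activated T cell genes were listed because egress and homing receptors change with activation. Of 15 resting genes, which include the members S1pr1 and Ccr7 as well as Klf2, 12 had a negative difference for Nfkb2-KO minus WT, with a median of -0.51. One of them, the IL-6 receptor gene Il6ra, fell without the block (-1.24, adjusted p = 0.0214). With the block 4 fell, namely Il6ra, Satb1, Foxp1 and Klf3, while Il7r, the IL-7 receptor gene, rose (0.72, adjusted p = 0.0279). In this contrast 0.341% of all tested genes were called, and 2.91% with the block, 1.00% lower. The unblocked Il6ra call held only without WT replicate 2, and without WT replicate 1 the value was -1.09 (adjusted p = 0.0819). With the block Il6ra and Satb1 were called whichever library was left out. The other 3 blocked calls were lost without either Nfkb2-KO library and without WT replicate 1, where Foxp1 was at -0.46 (0.170), Klf3 at -0.61 (0.0596) and Il7r at 0.52 (0.109). Klf3 was also lost without WT replicate 2, and Foxp1 and Il7r without either DKO library. Of 15 activated genes, which include Cd44, 6 had a negative difference, the median was 0.01, and only the transcription factor gene Irf4 was called, higher by 0.56 with the block (adjusted p = 0.0364). It was not called without either DKO library, either Nfkb2-KO library or WT replicate 2 (range 0.35 to 0.77). In DKO relative to Nfkb2-KO cells, 5 resting genes were higher and 2 lower with the block. Of all tested genes 5.02% were called there with the block, in either direction. The resting calls of Foxp1 (higher, range 0.59 to 0.82) and Il7r (lower, range -0.90 to -0.68) were lost when some single libraries were left out. Those of Il6ra and Satb1 were kept. With the block, 4 activated genes were also higher (Icos, Maf, Klrg1 and Prdm1). These 4 calls were all lost without either DKO library or Nfkb2-KO replicate 2, and Klrg1 also without Nfkb2-KO replicate 1, with adjusted p up to 0.249. Of the 84 genes tested in these 5 lists, none was called in RelB-KO against WT, DKO against WT or DKO against RelB-KO cells. At an unadjusted p under 0.05 limma gave 2, 9 and 4 of them in that order, and 4, 20 and 9 with the block. The shares of all tested genes at that threshold were 1.24%, 5.18% and 2.88%, and 3.13%, 12.9% and 8.81% with the block. At an adjusted p under 0.05 it called 0.00725%, 0.0145% and 0.00725% of all tested genes in these contrasts, and 0.0145%, 0.0652% and 0.0145% with the block. The stromal and endothelial markers summed to 10.25 to 10.38 in DKO and 9.90 to 10.00 in Nfkb2-KO cells. They summed to 10.11 to 10.36 in RelB-KO and 10.27 to 10.47 in WT cells. This sum was lowest where S1pr1 and S1pr4 were lowest, but it rests chiefly on Pecam1 (-0.43 for Nfkb2-KO minus WT). Of the 4 markers tested, the 3 others had positive differences in that contrast, the largest 0.11. Ccl21a, Ccl19, Cdh5 and Lyve1 were at 0, and the part of such cells in the results was not tested.

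**Figure D4:**
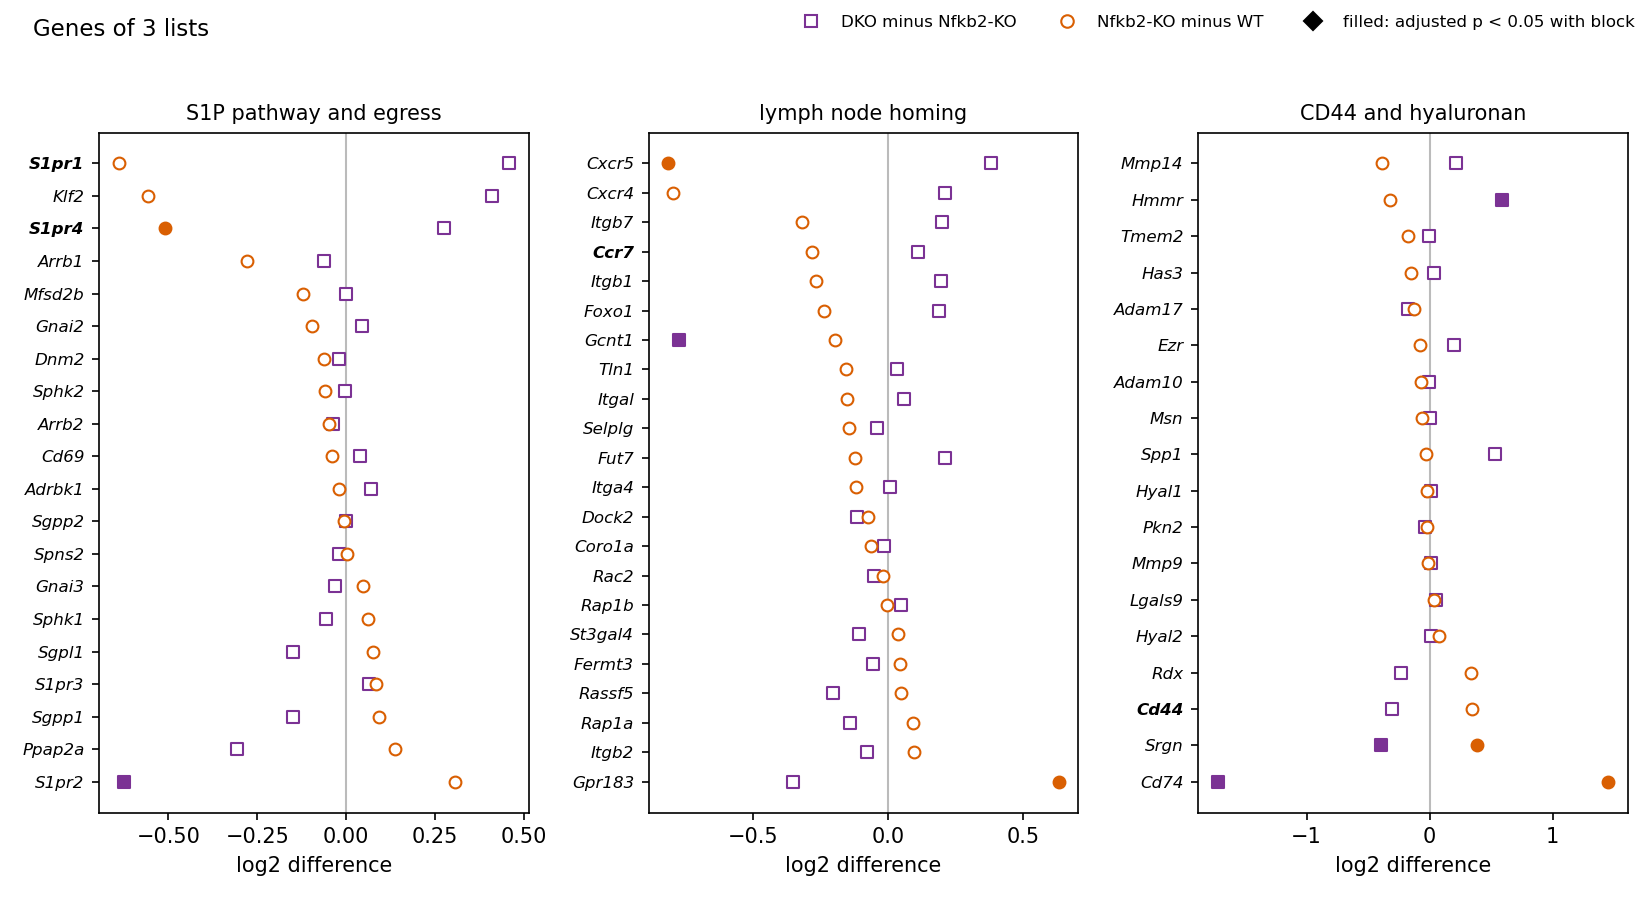
Log2 differences of tested genes of 3 lists (S1P pathway and egress, lymph node homing, CD44 and hyaluronan) for DKO minus Nfkb2-KO (squares) and Nfkb2-KO minus WT (circles), filled where called with the replicate block, with 1 tested homing gene not shown. The contrasts share the Nfkb2-KO libraries, so opposite signs are partly built in, and for Nfkb2-KO minus WT the list medians are -0.03, -0.12 and -0.03.

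Genes most like each member over the 8 libraries were found by Pearson r on values centred on their replicate number. S1pr1 was most like Gpr146 (r = 0.982), Inadl (0.969) and Samhd1 (0.967). Those nearest to S1pr4 were Vps13c (0.989), Slfn1 (0.989) and Ccng2 (0.986). Ccr7 had weaker partners in Ly6c1 (0.916), Sidt1 (0.898) and Rps6 (0.881), the last a ribosomal protein gene with pseudogene copies whose counts are uncertain. Cd44 was most like Gem (0.981), Rnf19b (0.981) and Gadd45g (0.975). For Nfkb2-KO minus WT, the 3 genes like S1pr1 had differences of -0.83, -0.59 and -0.79, in the order named, and each passed with the block (adjusted p = 0.0396, 0.0310 and 0.0322) and not without it. Those like S1pr4 had differences of -0.51, -0.83 and -0.59 and also passed with the block alone, Slfn1 with an adjusted p of 0.00621. Of those like Cd44, Rnf19b (0.77) and Gadd45g (0.69) passed with the block (adjusted p = 0.00585 and 0.00558), while Gem (0.59) did not (0.0576). Of those like Ccr7 none passed. These genes were picked for their likeness to the members in the same libraries, so their tests are not separate evidence.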

How the data were processed

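Per the labels' protocols, RNA was extracted with Qiagen RNeasy reagents and made into TruSeq libraries. The submitters' processing notes name STAR, mm10 and DESeq2 1.10.1 without roles, and the counting program, annotation and strand setting are not given in the sources used here. The deposited table holds log2 values, per the file headers log2 RPKM after batch correction, by a method not stated. Un-logged they sum to between 18.2 and 19.7 M per library, so they were taken as log2 expression relative to library size. Weakly expressed genes vary unusually little in these values, which understates their changes. S1pr5, for example, had an SD of 0.0001 to 0.0018 within genotypes. For such genes 1 unit need not be a factor of 2. The authors' deposited table also holds log2 fold changes with raw and adjusted p-values for the knockouts against WT, printed as theirs. Its 8 columns of z-scores were not used.

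Of 22432 genes, 6247 at 0 in all libraries and 1 with a blank cell were left out, as were genes with a mean un-logged value below 1. A linear model by genotype was fitted to the 8 libraries with limma 3.58.1 under R 4.3.3 (lmFit, eBayes with trend), and p-values were Benjamini-Hochberg adjusted over 13797 genes per contrast. Since values were already on a log2 scale, a pseudocount of 1 was tried as an alternative only. The difference between replicate 1 and replicate 2 correlated across genes between genotypes at r of 0.81 to 0.89 in all 6 pairs of genotypes. The replicate numbers were therefore taken to pair libraries, although the labels do not say what they mark, and the fit with the replicate number as a block stands beside each result it changes. These shared differences remained in values that the headers call batch corrected. Neither fit took account of that correction, so their SEs and p-values may be too small. The fits were also run on simulated data with independent normal noise. That check left out the batch correction, so it cannot show whether these SEs and p-values are too small. Gene positions are from GENCODE vM21. List genes named were called in some contrast with or without the block, at most 5 per list and contrast, beside S1pr2, S1pr3 and S1pr5. Cd69, Xist, Ddx3y and Gm23731 are named outside this rule, Xist and Ddx3y after their values were seen. Likeness to a member was ranked among genes whose centred values had an SD of at least 0.2, and 3 are named per member. The members, lists and likeness rule were chosen with earlier results of these data known. Results for some list and marker genes are not reported here.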

Additional observations from a re-analysis of the deposited data

How the results depend on the processing

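Differences of the 4 genes kept their direction under every alternative that used all libraries (block, no filter, a filter of at least 32, pseudocount of 1, quantile normalization, no variance trend, only the genotypes compared). Only the replicate block changed calls, for S1pr4 in Nfkb2-KO minus WT (-0.51) and Nfkb2-KO minus RelB-KO (-0.45). With single libraries left out, S1pr1 in Nfkb2-KO minus WT ranged from -0.78 to -0.50, S1pr4 from -0.57 to -0.45 and Cd44 from 0.19 to 0.49. Under the block they ranged from -0.85 to -0.43, from -0.60 to -0.43 and from 0.33 to 0.35, a choice made after seeing the data, as were the other blocked ranges. Without a DKO or RelB-KO library the blocked S1pr1 value stayed at -0.64 and passed. S1pr4 in Nfkb2-KO minus RelB-KO then ranged from -0.52 to -0.37 and Cd44 from 0.25 to 0.42, with 0.34 and a call without either DKO library. Leaving libraries out for the list genes was likewise chosen after seeing the data. Directions that turned when 1 library was left out were those of Ccr7 in DKO minus WT (-0.62 to 0.28), Nfkb2-KO minus WT (-0.73 to 0.16, with the block -0.65 to 0.087), RelB-KO minus WT (-0.63 to 0.26), DKO minus Nfkb2-KO (-0.12 to 0.35), DKO minus RelB-KO (-0.22 to 0.25), Nfkb2-KO minus RelB-KO (with the block -0.33 to 0.14, and 0.13 without RelB-KO replicate 2) and the interaction (-0.14 to 0.75), of Cd44 in DKO minus WT (-0.11 to 0.17), RelB-KO minus WT (-0.20 to 0.21) and DKO minus RelB-KO (-0.18 to 0.24), and of S1pr1 in DKO minus WT (-0.38 to 0.019) and DKO minus RelB-KO (-0.25 to 0.15). Counts of called genes over the whole table moved more. Nfkb2-KO minus WT gave 47, and 402 with the block, 20 with no filter, 15 with the stricter filter, 12 with no trend, 1 with only those genotypes and 0 to 29 with single libraries left out, 0 being without WT replicate 1. DKO minus Nfkb2-KO gave 106, and 693 with the block, 13 with only those genotypes and 8 to 58 with libraries left out. Nfkb2-KO minus RelB-KO gave 110, and 615, 13 and 9 to 55 under the same settings. DKO minus WT gave 2, with 9 under the block, 1 with no trend, 0 with only those genotypes and 1 to 13 with libraries left out. RelB-KO minus WT gave 1, with 2 under the block and 1 to 12 with libraries left out. DKO minus RelB-KO gave 1, with 2 under the block, 0 with no filter, the stricter filter, no trend or only those genotypes, and 0 to 2 with libraries left out. The interaction gave 1, with 65 under the block, 0 with no trend and 0 to 12 with libraries left out. The cause of these changes was not tested. Depth per value is unknown, and 2 libraries per genotype limit what these fits can show.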
